A study of Homo sapiens with 6 samples.

Results

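Wnt signalling through beta-catenin was followed at the RNA level in SKOV3 cells, a human cell line long established from an ovarian cancer, by 10 genes chosen by name: the receptor gene FZD7, the coreceptor genes LRP5 and LRP6, the destruction complex genes APC, AXIN1, AXIN2 and GSK3B, the beta-catenin gene CTNNB1, its DNA-binding partner TCF7L2, and NKD1, an inhibitor that acts on Dishevelled. All 10 were found, each as 1 row, among the 57905 genes of the deposited table. RNA was sequenced from 3 libraries of cells given an shRNA against CPT1A, the outer mitochondrial membrane enzyme that starts long-chain fatty acid import, and from 3 control libraries labelled wild type; both groups were in normal culture. The labels name no control hairpin for the wild-type cells, so loss of CPT1A and the mere presence of a hairpin cannot be told apart. They call the 3 libraries of a group biological replicates without saying whether the hairpin was introduced separately for each, and the shRNA columns carry a tag, sh2, that is not explained, so p-values measure the spread between these libraries.

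Without a Wnt signal, beta-catenin is bound by a complex of the scaffolds AXIN1, AXIN2 and APC, is phosphorylated by the casein kinase CSNK1A1 and by GSK3B, and is then destroyed by the proteasome. A Wnt ligand that joins a Frizzled receptor to LRP5 or LRP6 draws the axins to the membrane, and beta-catenin that escapes destruction enters the nucleus and works with TCF and LEF factors, among them TCF7L2. AXIN2 and NKD1 are both inhibitors of the pathway and known targets of it, which makes their transcripts common readouts of its activity. Beta-catenin has another role at the membrane, where it ties cadherins to alpha-catenin. Its stability is set mainly at the protein level, which RNA sequencing does not measure.

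Depth ran from 15740143 to 22271565 counts per library. CPT1A transcripts were at 2.16, 2.00 and 1.96 FPKM (counts scaled to exonic length and to library total) in the shRNA libraries, against 6.70, 8.06 and 8.0 FPKM in the control libraries, a 3.91-fold decrease (edgeR adjusted p = 3.3e-06). On the first principal component, with 61.4% of the variance, the shRNA libraries lay at 27.0 to 32.9, and control replicate 2 lay at -16.8, nearer to them than the other control libraries at -36.1 and -36.1. Of 9 markers of the ovarian epithelial cancer line, 7 were expressed above the minimum, while MUC16 and WT1 were not. The 9 summed to 1100 to 1258 FPKM in shRNA and 1608 to 1970 FPKM in control libraries, with KRT7, KRT8, KRT19 and PAX8 called lower and none higher. Marker lists summed to 0.65 to 1.10 FPKM in shRNA and 2.18 to 2.54 FPKM in control libraries for fibroblasts, to 0.43 to 0.65 and 0.17 to 0.24 FPKM for endothelium, and to 0.57 to 0.67 and 0.48 to 1.06 FPKM for immune cells, of which CD3E was 0 in every library. The part of these shifts, and of the place of control replicate 2, in the results below was not tested beyond leaving out each library. In bulk RNA, fewer cells that express a gene and less of its RNA per cell cannot be told apart.

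Of the 10 genes, 8 reached 1 FPKM in 3 or more libraries and entered edgeR's quasi-likelihood test across 12784 genes. CTNNB1 was lower in the shRNA libraries, FZD7 and NKD1 were higher, and the remaining 5 were not called at a Benjamini-Hochberg adjusted p under 0.05. Across all tested genes 27.4% were called, 13.8% higher and 13.7% lower. The FPKM ranges of the groups did not overlap for these same 3 of the 8 genes, which held for 42.6% of all tested genes. For NKD1 this was fixed by the minimum, which it passed only through the shRNA libraries. A count of 3 in 8 members is not far from these shares, so the results below are about single genes. The median log2 change of all tested genes was -0.01.

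**Figure D1:**
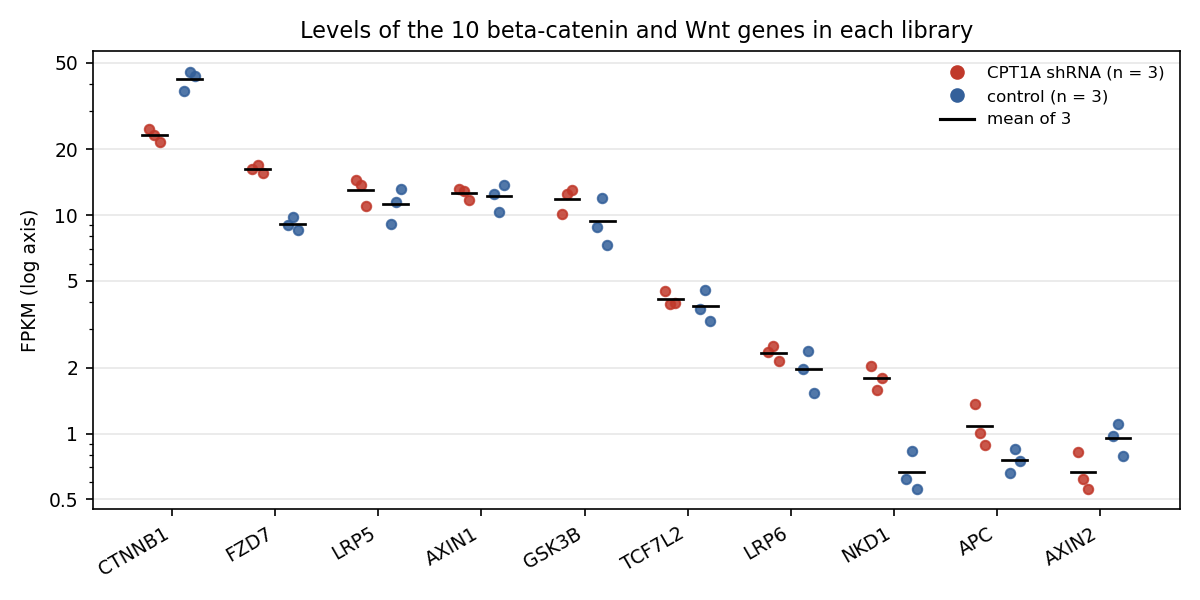
FPKM on a log axis for each of the 10 genes, with 3 CPT1A shRNA libraries (red) left of 3 control libraries (blue) and a black line at the mean of each group. CTNNB1 sat at 21.6 to 24.8 FPKM in shRNA libraries and at 36.9 to 45.5 FPKM in control libraries, while FZD7 and NKD1 were higher in all 3 shRNA libraries.

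CTNNB1, the gene for beta-catenin, was the most abundant of the 10 in both groups. It had 24.8, 23.3 and 21.6 FPKM in shRNA libraries, against 36.9, 45.5 and 43.3 FPKM in control libraries. Every shRNA library lay below every control library, and the shRNA libraries were close to one another. The fitted decrease was 1.89-fold, a log2 change of -0.92 ± 0.10 (SE; edgeR adjusted p = 0.000122, lower in 3 of 3 shRNA libraries). Its mean level exceeded that of 81.5% of the tested genes in shRNA libraries and of 90.2% in control libraries. CTNNB1 (ENSG00000168036) lies on chromosome 3, plus strand, between 41236328 and 41301587 by the table's coordinates, for which no human build is named. It shares 13498 bases of its span with the kinase gene ULK4 on the other strand. ULK4 had 94, 78 and 66 counts in shRNA libraries and 40, 70 and 59 counts in control libraries, against 2421 to 3083 and 4456 to 6690 counts for CTNNB1, so its reads were few beside those of CTNNB1. The read strand is not stated, so reads of the shared stretch cannot be assigned by strand.

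RefSeq's promoter table (GRCh38.p14) held 9 start regions for 6 of the 10 genes, CTNNB1, APC, AXIN1, GSK3B, LRP5 and TCF7L2; each region runs from 250 bases before the start of transcription to 50 bases after it. The CTNNB1 region is shown because this gene had the only called decrease among the 10. It lies at chr3:41199255-41199554 on the plus strand, and the capitals mark the letters TATAA, which begin 29 bases before the start.
CTNNB1: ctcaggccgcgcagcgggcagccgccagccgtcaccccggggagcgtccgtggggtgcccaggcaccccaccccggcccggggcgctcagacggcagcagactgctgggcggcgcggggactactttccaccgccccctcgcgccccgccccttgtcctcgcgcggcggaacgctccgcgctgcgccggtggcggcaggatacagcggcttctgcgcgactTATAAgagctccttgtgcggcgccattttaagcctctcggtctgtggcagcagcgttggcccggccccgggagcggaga
The region is 74.0% G and C. TATAA on the gene's own strand was in 14.8% of all 35116 promoter regions of the table and in none of the other 8 regions of these genes. The core letters that TCF and LEF factors bind were searched on both strands as the letters CTTTG followed by AT, AA, TT or TA. They were in 1 of the 9 regions, at the second listed start site of TCF7L2, and in 13.8% of all promoter regions. A match is a description of letters and not a bound site.

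The 7-base words ATGTCCA and TGTCCAA, which had been picked earlier from fold changes in these same libraries and are given with no test, were searched in the longest GENCODE 29 3' UTR of each gene. CTNNB1 had none in 1111 bases. LRP6 had 2 in 5101 bases, the other 8 genes had none, and CPT1A had 2 in 2755 bases, counting overlapping words separately. Of 10683 tested genes with a searched 3' UTR, 16.4% held such a word.

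FZD7, a Wnt receptor studied in ovarian cancer, was higher in the shRNA libraries, with the smallest standard error of the 10 genes. It had 16.2, 16.9 and 15.6 FPKM in shRNA libraries, against 8.99, 9.82 and 8.54 FPKM in control libraries. The groups were well apart, and no library of either group lay far from the others. The increase was 1.70-fold, a log2 change of 0.76 ± 0.05 (SE; edgeR adjusted p = 0.000657, higher in 3 of 3 shRNA libraries). FZD7 (ENSG00000155760) lies on chromosome 2, plus strand, between 202899310 and 202903160, and no other gene of the table overlaps it.

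Among the 10 Frizzled genes FZD7 took 15.1%, 17.9% and 18.4% of their summed FPKM in shRNA libraries, against 8.34%, 8.66% and 7.94% in control libraries. The ranges of this share thus did not overlap between the groups. FZD2 was the most abundant receptor gene of the list in both, and it fell 1.72-fold, to 40.0 ± 7.2 FPKM in shRNA libraries, against 65.5 ± 5.7 FPKM in control libraries (SD, n = 3 each; edgeR adjusted p = 0.00145). FZD5 rose 2.22-fold to 7.57 ± 0.75 FPKM in shRNA libraries, against 3.25 ± 0.60 FPKM in control libraries (SD, n = 3 each; edgeR adjusted p = 0.000228). ROR1, a receptor of the branch that does not use beta-catenin, rose 2.81-fold to 1.88, 2.39 and 2.04 FPKM in shRNA libraries, against 0.62, 0.98 and 0.54 FPKM in control libraries (edgeR adjusted p = 0.000439). Like NKD1 below, ROR1 reached the expression minimum only in the shRNA libraries, so a gene admitted this way had to be higher there. Of 14 tested receptor and coreceptor genes, FZD7 among them, 5 were called higher and 2 lower, with a median log2 change of 0.16. Across all tested genes the shares were 13.8% higher and 13.7% lower. The others called were FZD1 (log2 change 0.77), FZD4 (0.76) and FZD6 (-0.92).

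The coreceptor genes showed no call. LRP5 had 14.5, 13.8 and 11 FPKM in shRNA libraries, against 9.14, 11.5 and 13.1 FPKM in control libraries, and the groups overlapped (log2 change 0.15 ± 0.19 SE; edgeR adjusted p = 0.505). LRP6 had 2.37, 2.51 and 2.16 FPKM in shRNA libraries, against 1.97, 2.40 and 1.54 FPKM in control libraries (log2 change 0.18 ± 0.18 SE; edgeR adjusted p = 0.447). LRP5 made up 84.7% ± 1.2 of the FPKM of the pair in shRNA libraries and 84.8% ± 4.0 in control libraries (SD, n = 3 each), and the highest value, 89.5%, was that of control replicate 3.

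**Figure D2:**
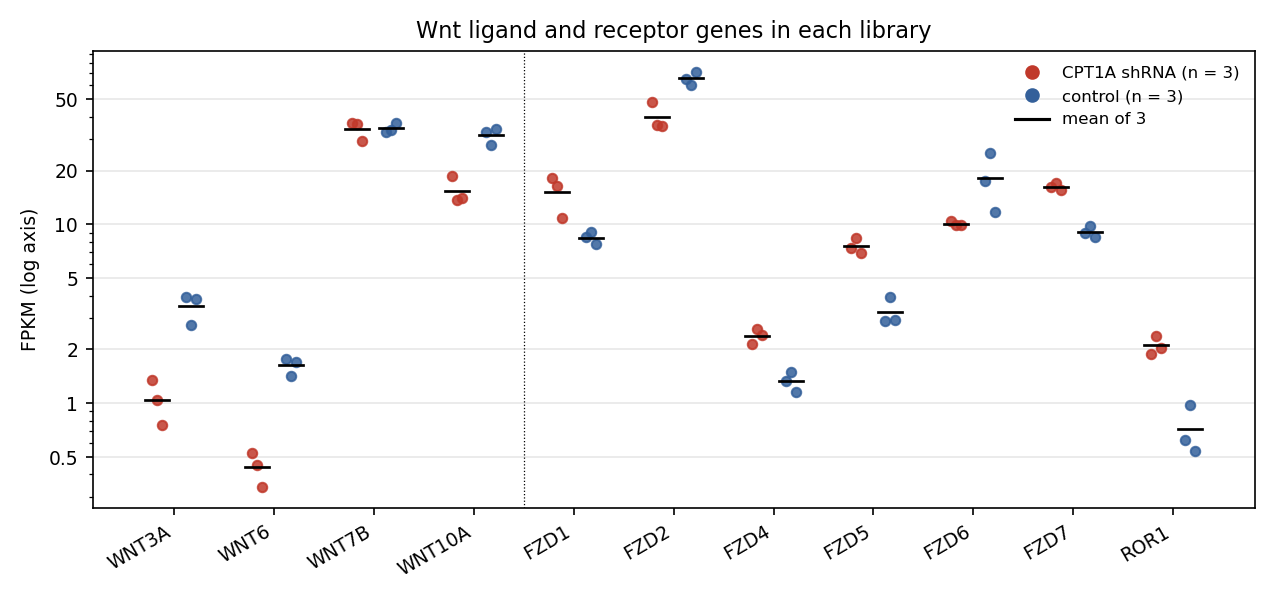
FPKM on a log axis for 4 Wnt ligand genes (left of the dotted line) and 7 receptor genes, with CPT1A shRNA libraries (red) left of control libraries (blue) and black lines at group means. WNT3A, WNT6 and WNT10A lay lower in every shRNA library and WNT7B overlapped, while FZD1, FZD4, FZD5, FZD7 and ROR1 lay higher and FZD2 and FZD6 lower.

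The ligands that act on these receptors were mostly low: of 19 Wnt genes, 11 were under 1 FPKM in every library, 3 of them with no count, and 7 were tested. Of the 7, none was called higher and 3 were called lower, with a median log2 change of -0.27. Among all tested genes 13.8% were called higher and 13.7% lower. The absence of higher calls depended on the expression minimum: in the fit without it, where 14.0% of genes were called, 1 ligand was called higher. That ligand was WNT2B, with 0.93, 0.76 and 0.77 FPKM in shRNA libraries, against 0.43, 0.55 and 0.47 FPKM in control libraries (log2 change 0.69; edgeR adjusted p = 0.0135). WNT10A, a ligand of the beta-catenin branch, fell 2.14-fold, to 18.7, 13.6 and 14.0 FPKM in shRNA libraries, against 32.7, 27.6 and 34.1 FPKM in control libraries (edgeR adjusted p = 0.000269). WNT3A, the ligand most used to switch on beta-catenin in culture, fell 3.52-fold, to 1.34, 1.04 and 0.76 FPKM in shRNA libraries, against 3.95, 2.74 and 3.84 FPKM in control libraries (edgeR adjusted p = 0.00028). In both genes the groups were apart. WNT6, 1 of the 3 lower calls, fell 3.87-fold (edgeR adjusted p = 0.00066) but reached the minimum only in the control libraries. A gene admitted this way had to be lower in the shRNA libraries. In the fit without the minimum WNT6 was also called lower (edgeR adjusted p = 1.8e-06). WNT7B, the most abundant ligand, had 34.3 ± 4.4 FPKM in shRNA libraries and 34.4 ± 2.2 FPKM in control libraries (SD, n = 3 each; edgeR adjusted p = 0.662). Of 8 genes for the release and removal of Wnts, 3 were tested and none was called; the highest of them, PORCN, which adds the fatty acid that Wnts need for release, had 25.1 ± 2.4 FPKM in shRNA libraries and 29.5 ± 3.7 FPKM in control libraries (SD, n = 3 each; edgeR adjusted p = 0.11). NOTUM, an enzyme that removes that fatty acid and a known Wnt target, was under the minimum, with 0.21, 0.27 and 0.19 FPKM in shRNA libraries, against 1.05, 1.07 and 0.93 FPKM in control libraries. Its groups were well apart, and in the fit without the minimum it was 4.73-fold lower (edgeR adjusted p = 2.2e-08). Adjusted p-values of that fit cannot be set beside those of the fit with the minimum. CPT1A had an edgeR adjusted p of 2.3e-27 there, against 3.3e-06 with the minimum. Of the list, 2 genes were called lower with edgeR's own expression filter, and 1 without control replicate 2.

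NKD1, which binds Dishevelled and dampens the signal, had the largest change of the 10 genes. It had 2.03, 1.58 and 1.79 FPKM in shRNA libraries, against 0.62, 0.83 and 0.56 FPKM in control libraries, from 187, 122 and 166 counts against 56, 91 and 53 counts. No control library came near an shRNA library. The increase was 2.54-fold, a log2 change of 1.35 ± 0.18 (SE; edgeR adjusted p = 0.000606, higher in 3 of 3 shRNA libraries). NKD1 passed the expression minimum only through the shRNA libraries, so a gene admitted this way had to be higher there. In the fit without the minimum, over the 29615 genes with any count, its edgeR adjusted p was 5.48e-07. That value is not comparable with the one above: CTNNB1 too had a smaller edgeR adjusted p there, 3.73e-11 against 0.000122. NKD1 (ENSG00000140807) lies on chromosome 16, plus strand, between 50582241 and 50670647, and its overlapping neighbours there had at most 1 count. It held 87.8% ± 1.9 of the FPKM of NKD1 and its paralogue NKD2 in shRNA libraries and 63.7% ± 6.5 in control libraries (SD, n = 3 each).

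Of 8 tested genes for Dishevelled and its modulators, 1 was called higher, NKD1 itself, and 1 lower. These counts are not far from the shares over all tested genes, 13.8% higher and 13.7% lower. The lower gene was CXXC5, a zinc finger protein that binds Dishevelled, at 20.9 ± 2.0 FPKM in shRNA libraries and 32.3 ± 0.8 FPKM in control libraries (SD, n = 3 each; edgeR adjusted p = 0.000678). DVL1, the highest of this list, had 55.3 ± 1.0 FPKM in shRNA libraries and 54.3 ± 6.2 FPKM in control libraries (SD, n = 3 each; edgeR adjusted p = 0.781). ZNRF3, an enzyme that removes Frizzled receptors from the membrane and a known Wnt target, rose 1.55-fold to 4.86 ± 0.06 FPKM in shRNA libraries, against 2.98 ± 0.16 FPKM in control libraries (SD, n = 3 each; edgeR adjusted p = 0.00367). It was 1 of 2 tested genes of the R-spondin and Frizzled turnover list. The other was LGR4, an R-spondin receptor and the highest of that list, with 10.3 ± 0.4 FPKM in shRNA libraries and 8.24 ± 3.31 FPKM in control libraries (SD, n = 3 each; edgeR adjusted p = 0.372).

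The secreted inhibitors went both ways. DKK1, which blocks LRP5 and LRP6 and is itself a Wnt target, fell 2.41-fold, to 16.1, 21.3 and 36.0 FPKM in shRNA libraries, against 59.2, 55.3 and 54.5 FPKM in control libraries (edgeR adjusted p = 0.00131). Its shRNA libraries differed among themselves more than its control libraries. SFRP1, which binds Wnts, rose to 47.2 ± 3.7 FPKM in shRNA libraries, against 33.8 ± 4.5 FPKM in control libraries (SD, n = 3 each; edgeR adjusted p = 0.0171). The call of SFRP1 was lost without shRNA replicate 2, shRNA replicate 3 or control replicate 1 (edgeR adjusted p up to 0.09). Of 5 tested inhibitors these were the 2 called, beside 27.4% of all tested genes.

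Of the destruction complex genes among the 10, none was called. AXIN1, the scaffold on which the complex is built, had 13.2, 12.9 and 11.7 FPKM in shRNA libraries, against 12.5, 10.3 and 13.8 FPKM in control libraries, with full overlap of the groups (log2 change -0.03 ± 0.15 SE; edgeR adjusted p = 0.903). GSK3B, the kinase that marks beta-catenin for destruction, had 10.2, 12.5 and 13.0 FPKM in shRNA libraries, against 8.85, 12.02 and 7.34 FPKM in control libraries (log2 change 0.27 ± 0.22 SE; edgeR adjusted p = 0.228). Control replicate 2 lay among the shRNA libraries, and without it GSK3B was called higher, with a log2 change of 0.46 (edgeR adjusted p = 0.0161).

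APC and AXIN2 were under the expression minimum and were fitted only without it, where 14.0% of genes were called. APC, the scaffold lost in most colorectal cancers, had 1.36, 1.01 and 0.89 FPKM in shRNA libraries, against 0.66, 0.85 and 0.75 FPKM in control libraries. The groups did not overlap, but the nearest libraries differed by little, and the log2 change of 0.45 ± 0.20 (SE) did not pass (edgeR adjusted p = 0.139). Without control replicate 2 it passed, at a log2 change of 0.54 (edgeR adjusted p = 0.0396). AXIN2 had 0.82, 0.62 and 0.56 FPKM in shRNA libraries, against 0.97, 1.11 and 0.79 FPKM in control libraries, from 80, 51 and 55 counts against 92, 129 and 79 counts. The highest shRNA library lay just above the lowest control library, and the log2 change of -0.59 ± 0.19 (SE) did not pass (edgeR adjusted p = 0.108). AXIN2 and NKD1, both known Wnt targets, thus had fitted changes of opposite sign, of which that of NKD1 alone passed the test.

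Other parts of the destruction machinery did change. AMER1, a membrane protein that binds APC and beta-catenin, rose 3.16-fold to 3.77, 3.78 and 3.38 FPKM in shRNA libraries, against 0.88, 1.15 and 1.26 FPKM in control libraries (edgeR adjusted p = 3.86e-05). CSNK1A1, the kinase that primes beta-catenin for GSK3B, rose 1.80-fold to 22.5 ± 0.7 FPKM in shRNA libraries, against 11.9 ± 2.5 FPKM in control libraries (SD, n = 3 each; edgeR adjusted p = 0.000604). TNKS, a tankyrase that marks axins for destruction, rose 1.70-fold (edgeR adjusted p = 0.00177), whereas SKP1, a subunit of the ubiquitin ligase, fell 1.57-fold (edgeR adjusted p = 0.000935). PPP2R1A, the phosphatase scaffold and highest gene of the list, had 81.8 ± 5.5 FPKM in shRNA libraries and 103.6 ± 14.4 FPKM in control libraries (SD, n = 3 each; edgeR adjusted p = 0.0252), a call lost in 6 of 15 alternatives. Of 19 tested genes of the list, 5 were called higher, 3 lower and 11 not, with a median log2 change of 0.02. Beside this, 13.8% of all tested genes were called higher and 13.7% lower. Without control replicate 2, 9 were called higher, and the lower calls numbered 1 in both limma fits and without shRNA replicate 2, shRNA replicate 3 or control replicate 1.

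**Figure D3:**
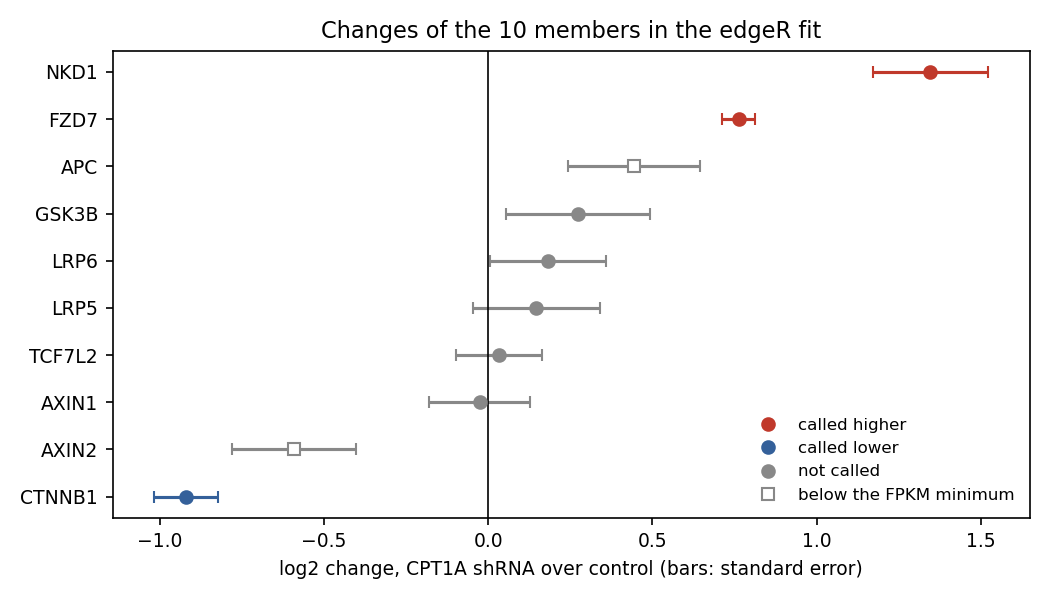
Fitted log2 change (CPT1A shRNA over control) of the 10 genes, with bars of 1 standard error; red and blue circles were called higher and lower, grey circles were tested and not called, and open squares were under the expression minimum. NKD1 at 1.35 and FZD7 at 0.76 lay above 0 and CTNNB1 at -0.92 below it, while AXIN1 and TCF7L2 lay at -0.03 and 0.03.

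TCF7L2, the DNA-binding partner through which beta-catenin acts in many epithelia, had 4.49, 3.93 and 3.95 FPKM in shRNA libraries, against 3.70, 4.54 and 3.28 FPKM in control libraries (log2 change 0.03 ± 0.13 SE; edgeR adjusted p = 0.898). The groups overlapped. Its share of the FPKM of the 4 TCF and LEF genes was 38.7% ± 1.3 in shRNA libraries and 30.1% ± 4.6 in control libraries (SD, n = 3 each). TCF7L1, a relative that mostly represses, fell to 5.32 ± 0.66 FPKM in shRNA libraries, against 7.33 ± 0.59 FPKM in control libraries (SD, n = 3 each; edgeR adjusted p = 0.0179), a call lost without shRNA replicate 2, shRNA replicate 3 or control replicate 1 (edgeR adjusted p up to 0.105). LEF1 was at or under 0.08 FPKM in every library.

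Of 20 tested nuclear partners of beta-catenin, 5 were called higher and 5 lower, with a median log2 change of 0.05. The shares over all tested genes were 13.8% higher and 13.7% lower. The lower calls, TLE1, TCF7L1, PYGO1, TLE4 and TCF7, numbered 0 without shRNA replicate 2, 3 without shRNA replicate 1, 2 without shRNA replicate 3, 1 without control replicate 1 and 2 in both limma fits. The higher calls numbered 3 without shRNA replicate 1 or control replicate 1. The acetyltransferase gene EP300 rose 2.23-fold to 15.9 ± 2.2 FPKM in shRNA libraries, against 6.81 ± 2.00 FPKM in control libraries (SD, n = 3 each; edgeR adjusted p = 0.000462). Its relative CREBBP rose 1.52-fold (edgeR adjusted p = 0.00269), but not once the gene-length trend of each library was removed (edgeR adjusted p = 0.0613). Of the Groucho corepressors, TLE3 rose 1.92-fold to 2.55 ± 0.06 FPKM in shRNA libraries, against 1.26 ± 0.11 FPKM in control libraries (SD, n = 3 each; edgeR adjusted p = 0.000447). TLE1, the highest gene of the list, fell 1.35-fold (edgeR adjusted p = 0.00689, or 0.0561 without shRNA replicate 2).

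Beta-catenin's partners at adherens junctions also split. JUP, or gamma-catenin, the close relative that can take its place on cadherins, fell 1.70-fold, to 54.9, 43.8 and 37.8 FPKM in shRNA libraries, against 73.0, 65.7 and 82.1 FPKM in control libraries (edgeR adjusted p = 0.00176). CTNNA1, the alpha-catenin that links it to actin, was the most abundant of the list, with 108.2 ± 4.3 FPKM in shRNA libraries and 115.0 ± 6.2 FPKM in control libraries (SD, n = 3 each; edgeR adjusted p = 0.225). The receptor phosphatase gene PTPRF rose 1.74-fold (edgeR adjusted p = 0.000207) and the actin linker VCL 1.43-fold (edgeR adjusted p = 0.0039). CTNND1, or p120-catenin, had 37.9 ± 3.5 FPKM in shRNA libraries and 28.5 ± 4.3 FPKM in control libraries (SD, n = 3 each; edgeR adjusted p = 0.0454), a call lost in 8 of 15 alternatives. Of 9 tested genes 3 were called higher, or 5 without control replicate 2, and 1 lower, with a median log2 change of 0.18. In the main fit 13.8% of all tested genes were called higher and 13.7% lower.

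Ratios of pathway genes within a library do not depend on how libraries are scaled. They were compared for 8 pairs by exact permutation (two-sided), where the design of 3 against 3 allows no p below 0.1 and, here, no Benjamini-Hochberg adjusted p below 0.2. The groups did not overlap in 4 of the 8, each at that smallest p. For CTNNB1 to APC and NKD1 to CTNNB1 this was fixed in advance. The FPKM ranges of the single genes were already apart, in opposite directions, so these ratios add no separate result. The FPKM ratio of CTNNB1 to CTNNA1 was 0.220, 0.216 and 0.207 in shRNA libraries, against 0.342, 0.386 and 0.363 in control libraries, a difference in mean log2 of -0.76. The ratio of CTNNB1 to APC was 18.3, 23.0 and 24.2 in shRNA libraries, against 55.9, 53.5 and 57.7 in control libraries, a difference of -1.36. The ratio of NKD1 to CTNNB1 was 0.0818, 0.0679 and 0.0829 in shRNA libraries, against 0.0168, 0.0183 and 0.0129 in control libraries, a difference of 2.29. The ratio of TCF7L2 to TCF7L1 differed by 0.58, with control replicate 2 nearest to the shRNA libraries.

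In the other 4 pairs the groups overlapped. CTNNB1 to JUP had a mean log2 ratio of -0.95 ± 0.17 in shRNA libraries and -0.81 ± 0.25 in control libraries (SD, n = 3 each; exact permutation p = 0.6), both genes being lower in the shRNA libraries. LRP5 to LRP6 differed by -0.05 (exact permutation p = 1.0). AXIN2 to AXIN1 differed by -0.58 and GSK3B to GSK3A by 0.66 (exact permutation p = 0.2 for both). GSK3A, the paralogue of GSK3B, had 16.4 ± 1.3 FPKM in shRNA libraries and 20.2 ± 1.8 FPKM in control libraries (SD, n = 3 each; edgeR adjusted p = 0.0414), a call lost in 11 of 15 alternatives.

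**Figure D4:**
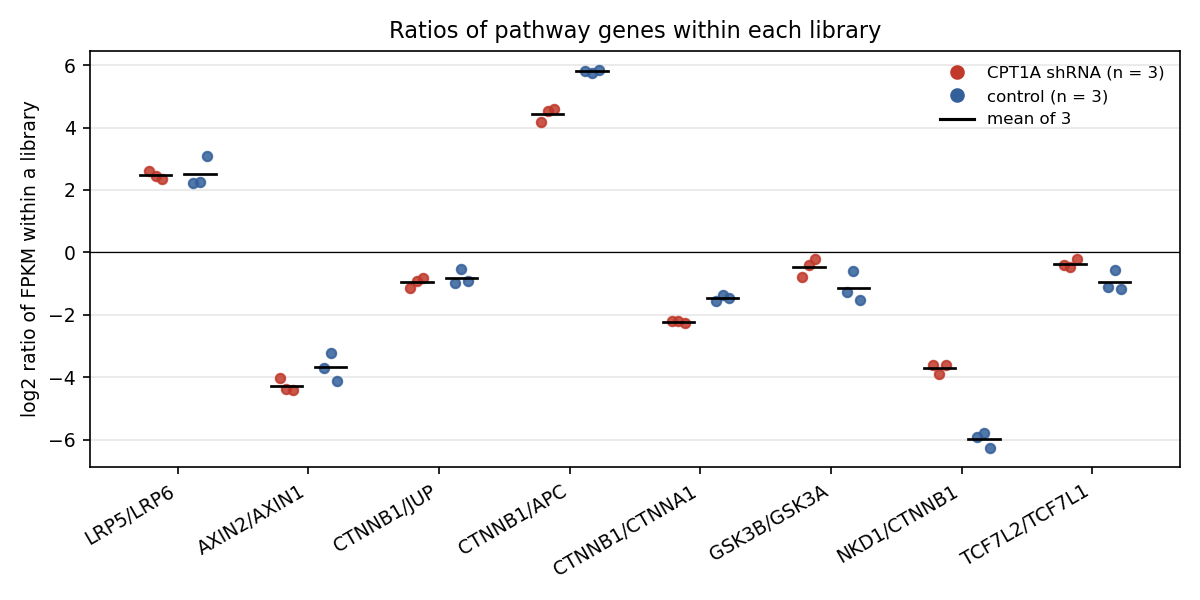
log2 ratio of FPKM within each library for 8 pairs of genes, with CPT1A shRNA libraries (red) left of control libraries (blue) and black lines at group means. NKD1/CTNNB1 lay higher by 2.29, and CTNNB1/APC and CTNNB1/CTNNA1 lower by 1.36 and 0.76, in the shRNA libraries, while LRP5/LRP6 and CTNNB1/JUP overlapped.

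Genes known as Wnt and beta-catenin targets in other tissues did not move one way. Of 25 tested, 6 were called higher and 10 lower, with a median log2 change of -0.23, beside 13.8% called higher and 13.7% lower of all tested genes. Over the alternatives the higher calls numbered 4 to 8 and the lower calls 7 to 12. The higher calls numbered 4 with a replicate block and without shRNA replicate 2, shRNA replicate 3 or control replicate 1. MMP7, a secreted protease, fell 7.80-fold, to 25.6, 9.96 and 8.18 FPKM in shRNA libraries, against 115.3, 113.2 and 96.6 FPKM in control libraries (edgeR adjusted p = 6.33e-05). EPHB2, an ephrin receptor, fell 1.84-fold, to 6.12 ± 0.21 FPKM in shRNA libraries, against 10.7 ± 0.4 FPKM in control libraries (SD, n = 3 each; edgeR adjusted p = 0.000273). On the other side, the transcriptional inhibitor ID2 rose 3.16-fold to 15.2 ± 3.2 FPKM in shRNA libraries, against 4.57 ± 0.81 FPKM in control libraries (SD, n = 3 each; edgeR adjusted p = 0.000111). FOSL1, a subunit of AP-1 and the highest gene of the list, rose 1.5-fold to 126.4 ± 11.7 FPKM in shRNA libraries, against 80.1 ± 10.1 FPKM in control libraries (SD, n = 3 each; edgeR adjusted p = 0.00518). NKD1 and ZNRF3, whose products restrain the pathway, were among the higher genes, and DKK1 among the lower. The direction of NKD1 was fixed by the expression minimum, which it passed only through the shRNA libraries. Most of these genes also answer to other pathways.

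In the planar polarity and calcium branch, which does not use beta-catenin, 2 of 20 tested genes were called higher and 3 lower, with a median log2 change of -0.03. Of all tested genes 13.8% were called higher and 13.7% lower. The counts are not far from these shares, so what follows is about single genes. The higher calls, PRICKLE1 and MAPK8, numbered 0 without shRNA replicate 2 or control replicate 1 and 1 without shRNA replicate 3. With the gene-length trend removed, 1 was called higher and 6 lower. RHOA, a GTPase that controls actin, fell 2.53-fold, to 96.6, 93.4 and 103.5 FPKM in shRNA libraries, against 253.6, 242.7 and 212.0 FPKM in control libraries (edgeR adjusted p = 6.49e-06). VANGL1, a membrane protein of planar polarity, fell 2.18-fold (edgeR adjusted p = 6.64e-05) and the kinase gene PRKCA 1.98-fold (edgeR adjusted p = 0.000277). PRICKLE1, another polarity gene, had 3.51 ± 0.98 FPKM in shRNA libraries and 2.03 ± 0.29 FPKM in control libraries (SD, n = 3 each; edgeR adjusted p = 0.024), a call lost without shRNA replicate 2, shRNA replicate 3 or control replicate 1 (edgeR adjusted p up to 0.119).

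**Figure D5:**
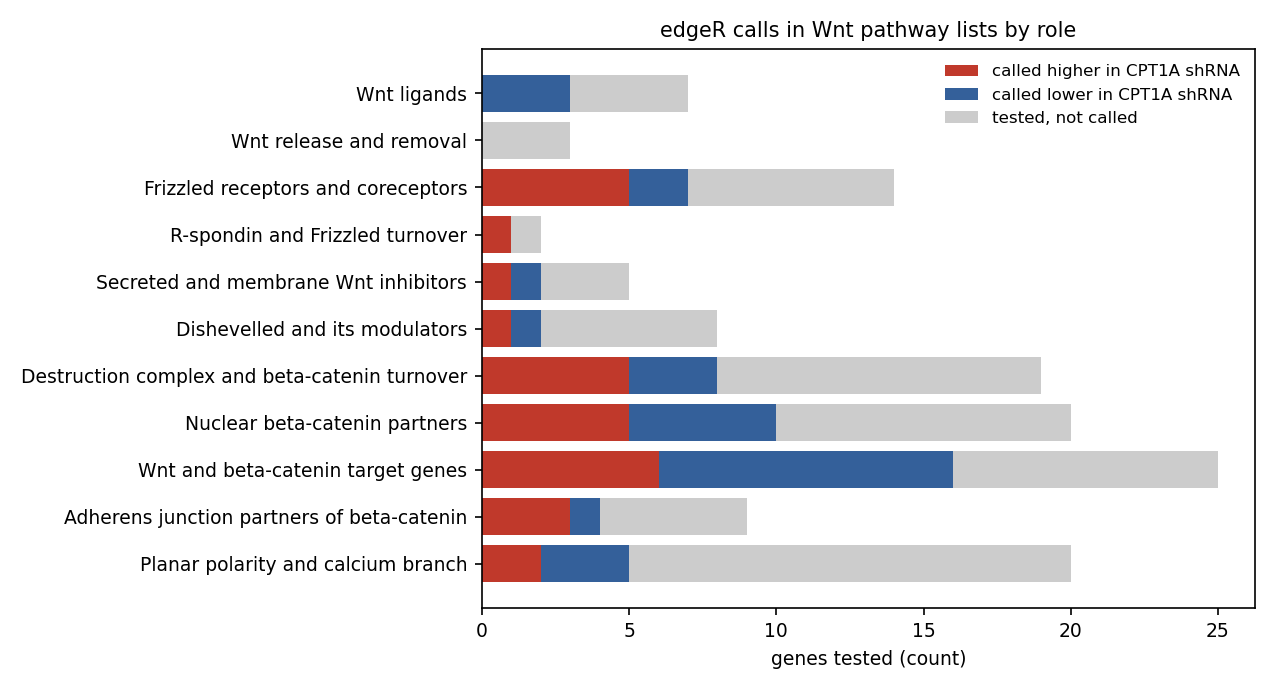
Number of tested genes in each Wnt pathway list, split into those called higher (red) and lower (blue) in CPT1A shRNA libraries and those not called (grey). The 7 tested ligands held 3 lower and no higher genes, and the receptors 5 higher and 2 lower. WNT6 among the lower ligands and ROR1 among the higher receptors passed the expression minimum only through the group where they were higher. The same held for NKD1, counted among the higher Dishevelled modulators and the higher targets. Of all tested genes 13.8% were called higher and 13.7% lower.

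Over all lists together, 129 of 190 pathway genes were tested, of which 27 were called higher and 28 lower, 42.6% in all, beside 27.4% of all tested genes. Their median log2 change was -0.03. The lists and the 10 genes were chosen with earlier results known, so the share describes the lists and is no test of them.

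By level, FPKM ordered the 10 genes differently in the 2 groups. In shRNA libraries CTNNB1 was followed by FZD7, then LRP5, AXIN1 and GSK3B, whose ranges overlapped from neighbour to neighbour, then TCF7L2, LRP6, NKD1, APC and AXIN2, each with a range apart from the next. In control libraries AXIN1, LRP5, GSK3B and FZD7 overlapped from neighbour to neighbour below CTNNB1, and AXIN2, APC and NKD1 did so at the bottom. FZD7 was the fifth in level in control libraries and the second in shRNA libraries.

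The 5 tested genes whose centred log2 CPM (counts scaled to library total) was closest to that of CTNNB1 over the 6 libraries were CHFR, RCC2, NUDT17, IRF2 and TOB2. Their root mean squared difference from CTNNB1 was 0.05 for CHFR, a mitotic checkpoint ubiquitin ligase, and 0.07 for RCC2, a mitotic regulator. CHFR had 2.57, 2.43 and 2.30 FPKM in shRNA libraries, against 4.12, 4.49 and 4.54 FPKM in control libraries. RCC2 had 63.1, 55.4 and 55.9 FPKM in shRNA libraries, against 91.9, 105.0 and 99.0 FPKM in control libraries. NUDT17, IRF2, an interferon regulatory factor, and TOB2 followed at 0.07 to 0.08.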

How the data were processed

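RNA sequencing libraries of SKOV3 cells were grouped by their titles into 3 CPT1A shRNA and 3 control libraries. Per the labels' protocols, poly(A) selection or rRNA removal (which is not said) was followed by random priming and 13 PCR cycles, with the read strand not stated. The authors deposited raw counts per gene and FPKM values; the submitters' processing notes list HTSeq 0.6.1, HISAT2 2.0.1, DESeq2 and cutadapt 1.9.1, with no roles, and a mouse build, mm8, although the identifiers are human. The deposited FPKM equal the count scaled to exonic length and to summed counts within 0.0051 for 100% of values. Coordinates are those of the table.

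The 12784 genes that reached 1 FPKM in 3 or more libraries were fitted, as raw counts, with edgeR 4.0.16 (R 4.3.3; TMM scaling, quasi-likelihood F test, Benjamini-Hochberg over all genes tested, called under 0.05). The procedure was tested on simulated data. Log2 changes are fitted, and their SE comes from the spread of log2 CPM (prior count 2) within each group. APC and AXIN2 come from the same fit over all 29615 genes with a count. PCR copies are not independent molecules. Libraries of a group differed by more than counting error (chi-square per degree of freedom 6.68 to 38.1), so none was counted as 1 library deposited again; this does not show that they came from separate cultures. Same-numbered libraries did not deviate together (correlations -0.07, 0.01 and -0.25), so numbers were not taken as pairs.

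The 10 genes, the lists and the ratios were chosen with earlier results of these data known; lists were written from general knowledge. Named were the 10 genes, CPT1A, the genes of the ratios, genes overlapping the 10, up to 4 called genes with the smallest p and the most abundant gene of each list, and the 5 genes most like CTNNB1. FZD1, FZD4, FZD6, LEF1, NKD2, NOTUM, WNT2B, PYGO1, TLE4, TCF7 and MAPK8 were added after their values were seen. Alternatives were median-ratio scaling, total counts, DESeq2 1.42.0, other expression minimums, limma 3.58.1 on log2(FPKM + 1) and log2(FPKM + 0.1), the replicate block, removal of the gene-length trend, and leaving out each library.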

Additional observations from a re-analysis of the deposited data

How the results depend on the processing

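CTNNB1, FZD7 and NKD1 kept their direction and their call in all 15 alternatives. Their log2 changes were -1.02 to -0.82, 0.73 to 0.83 and 0.75 to 1.51, with adjusted p up to 0.00186, 0.00822 and 0.00741. The lowest value for NKD1 came from limma on log2(FPKM + 1), a scale that understates low genes. For NKD1 the direction was fixed in the alternatives that kept the minimum, which it passed only through the shRNA libraries. It was also called higher without the minimum (edgeR adjusted p = 5.48e-07) and with edgeR's own expression filter (edgeR adjusted p = 0.000451). Without control replicate 2, GSK3B (log2 change 0.46, edgeR adjusted p = 0.0161) and APC (0.54, edgeR adjusted p = 0.0396) were called higher; the cause was not tested. Leaving out 1 library moved the log2 change of GSK3B between 0.14 and 0.46 and that of APC between 0.28 and 0.57. AXIN1, AXIN2, LRP5, LRP6 and TCF7L2 were called in no alternative; the small log2 changes of AXIN1 (-0.17 to 0.10), LRP6 (-0.02 to 0.33) and TCF7L2 (-0.05 to 0.15) crossed 0. Of the 55 called pathway genes, 36 kept their call in all 15 alternatives, 19 lost it in at least 1, and 33 of the 74 without a call gained one in at least 1. Over all genes the count of 3509 was 1882 without control replicate 1, 2060 without CPT1A shRNA replicate 2 and 5050 without control replicate 2; leaving out 1 library put higher genes between 968 and 2539 and lower genes between 914 and 2511. The replicate numbers were not taken as pairs. With a replicate block 3261 genes were called, the log2 change of CTNNB1 was -0.92 and no call among the 10 genes changed. With 3 libraries a group, AXIN2 at 51 to 129 counts, NKD1 at 53 to 187 and APC at 151 to 318 were the members with the fewest counts.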
